A study of Homo sapiens with 12 samples.

Results

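The 10 genes described here are ERK feedback genes: 4 MAP kinase phosphatases (DUSP1, DUSP4, DUSP5 and DUSP6), 3 Sprouty genes (SPRY1, SPRY2 and SPRY4), the 2 Sprouty-related genes SPRED1 and SPRED2, and the ETS transcription factor gene ETV5. They were taken by symbol from the deposited RNA tables, and all 10 were found among 20114 gene rows and passed the filter on low counts that left 12792 genes for testing. RNA was sequenced from a cabozantinib-resistant derivative of Caki-1 (2 libraries) and from wild-type, parental Caki-1 cells (2 libraries), an established human renal cell carcinoma line. Cabozantinib inhibits several receptor tyrosine kinases, among them the VEGF receptors, MET and AXL. Selection took place in McCoy's 5A medium, starting at 5 µM cabozantinib and reaching 20 µM within 2 months, after which the resistant cells were held in 10 µM. Parental cells were grown in RPMI 1640. Drug, medium and selection therefore cannot be told apart, the labels do not say whether drug was present at RNA collection, and the resistant cells stand for 1 selected line. Whether replicates were separate cultures is not stated, so p-values reflect only how these libraries varied, which may be technical. The series also holds 4 H3K27ac and 4 input samples, which were not used here.

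ERK is the last kinase of the RAS, RAF and MEK cascade that runs below receptor tyrosine kinases such as MET. Active ERK switches on transcription of its own inhibitors: the dual-specificity phosphatases remove phosphate from MAP kinases, and Sprouty and SPRED proteins act upstream on RAS and RAF activation. ETV5, with its relatives ETV1 and ETV4, is an ETS factor of the same output, and all of these transcripts are commonly read as markers of ERK signalling. CIC is a transcriptional repressor of several of them that ERK signalling relieves.

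The upstream sequence of 3 members is shown because DUSP1 and DUSP6 had the lowest fold changes and SPRY4 the highest among members with an entry in the RefSeq promoter table. The table (GRCh38.p14) held 7 of the 10 members. DUSP4, DUSP5 and ETV5 had no entry. Each line gives the 250 bases before the annotated start, 5′ to 3′ on the gene's strand. Capitals mark matches on either strand to TGACGTCA (the cyclic AMP response element), TGACG (its core, which overlaps it), CCGGAA (an ETS core), TGAATGAA or TGAATGGA (CIC octamers), TGANTCA (AP-1), TATAAA (the TATA box) and CACGTG (an E-box). The DUSP1 window is at chr5:172771196-172771445 (minus strand), the DUSP6 window at chr12:89352502-89352751 (minus strand) and the SPRY4 window at chr5:142324248-142324497 (minus strand).
DUSP1: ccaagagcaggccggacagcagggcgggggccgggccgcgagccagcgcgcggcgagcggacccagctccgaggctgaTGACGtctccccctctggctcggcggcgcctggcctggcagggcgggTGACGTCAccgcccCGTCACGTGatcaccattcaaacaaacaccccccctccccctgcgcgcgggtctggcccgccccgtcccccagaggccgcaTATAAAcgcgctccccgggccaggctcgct
DUSP6: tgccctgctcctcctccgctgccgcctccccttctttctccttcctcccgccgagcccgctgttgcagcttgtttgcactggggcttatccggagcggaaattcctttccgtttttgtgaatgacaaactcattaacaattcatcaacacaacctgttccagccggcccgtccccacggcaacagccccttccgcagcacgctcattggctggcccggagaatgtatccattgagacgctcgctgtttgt
SPRY4: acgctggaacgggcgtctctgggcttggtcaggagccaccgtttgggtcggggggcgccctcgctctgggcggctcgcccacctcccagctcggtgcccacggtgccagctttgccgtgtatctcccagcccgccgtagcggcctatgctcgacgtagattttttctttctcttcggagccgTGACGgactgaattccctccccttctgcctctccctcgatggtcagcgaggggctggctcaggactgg
The DUSP1 window held the full TGACGTCA, a TATAAA and a CACGTG, and 4 matches to TGACG, of which 2 lie within TGACGTCA on opposite strands. The share of 35116 such windows in the table with a match was 1.65% for TGACGTCA, 10.7% for TATAAA, 6.34% for CACGTG and 21.2% for TGACG. The SPRY4 window held 1 TGACG, and in the DUSP6 window none of the searched letters was found. These matches describe the letters in the windows and no binding was measured.

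The libraries held 14664723 and 12851393 estimated counts in the resistant line and 10605113 and 10584083 in the parental line. Levels below are counts relative to library size after TMM scaling (CPM) where lines are compared, unless TPM is named. Deposited TPM, which are also scaled by transcript length, serve where genes are compared and for the summed level of the MAP kinase phosphatases. Of the renal epithelial and carcinoma markers, KRT8, KRT18 and PAX8 had from 2355 to 5932 counts in every library. VIM had from 38527 to 43531 counts, while PAX2 was at 0 in each library. The 7 blood and endothelial markers in the tables had 0 to 2 counts per library. The 3 tested stromal markers summed to 26.7 and 33.0 CPM in resistant libraries against 59.3 and 56.8 CPM in parental libraries. All 3 were lower in both resistant libraries than in both parental ones, beside 29.7% of all tested genes. Of these 3 markers DCN was called lower, beside 3.41% of all tested genes. DCN had 1.03 and 0.233 CPM in the resistant libraries against 12 and 13.3 CPM in the parental libraries (adjusted p = 0.0129 with edgeR). Of 7 tested renal epithelial and carcinoma markers 1, CDH2, was called lower and 0 higher, beside 3.41% and 2.96% of all tested genes. CDH2 had 48.1 and 35.6 CPM in the resistant libraries against 78.9 and 80.5 CPM in the parental libraries (adjusted p = 0.0452 with edgeR). Without overlap between the lines 3 of the 7 were lower (CDH2, PAX8 and VIM) and 1 higher (CD70), beside 29.7% and 30.9% of all tested genes. In CPM PAX8 had 352 and 427 in the resistant libraries against 557 and 572 in the parental libraries. VIM had 2814 and 2993 against 4064 and 4060, and CD70 had 55.3 and 72.2 against 37.2 and 38.3. PAX8, VIM and CD70 did not pass with edgeR. The part of these stromal and renal markers in the results below was not tested. The resistant pair differed far more than the parental pair (a mean chi-square per gene of 46.4 in the resistant pair and 1.93 in the parental pair), and the share of genes called in either direction was 6.37% with all 4 libraries, 52.8% without resistant replicate 1 and 35.1% without resistant replicate 2.

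DUSP1 was lower in the resistant line, and it was the only member that passed the test. It encodes a nuclear phosphatase, MKP-1, that acts on JNK and p38 as well as ERK and is induced within minutes by growth factors and stress. DUSP1 had 45.9 and 35.9 CPM in the resistant libraries, against 102 and 101 CPM in the parental libraries. Both resistant libraries lay far below both parental ones, and the lines did not overlap. The means were 40.9 ± 7.08 CPM in the resistant line and 101.5 ± 1.08 CPM in the parental line (SD, n = 2 each), 2.48-fold lower (log2 fold change -1.31 ± 0.17 (SE), 95% interval -1.74 to -0.88, adjusted p = 0.0167 with edgeR's quasi-likelihood test and Benjamini-Hochberg adjustment). DUSP1 ranked 211 of 12792 by p, and 248 of the 436 genes called lower had a more negative log2 fold change. In bulk RNA, less of a transcript per cell and fewer cells that carry it cannot be told apart. The count of 1 of 10 members lower and 0 of 10 higher stands beside 3.41% of all tested genes called lower and 2.96% called higher. At an unadjusted p under 0.05 the count was again 1 lower, beside 13.6% of all tested genes, and 0 higher, beside 13.4%. DESeq2 also called DUSP1 alone, beside 5.14% of its tested genes lower and 4.14% higher. A fit that leaves out a library takes its spread from the complete pair alone and assumes the same spread for the lone library. DUSP1 was called in all 4 such fits, with log2 fold changes from -1.50 to -1.15 and adjusted p from 0.000475 to 0.0261.

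**Figure D1:**
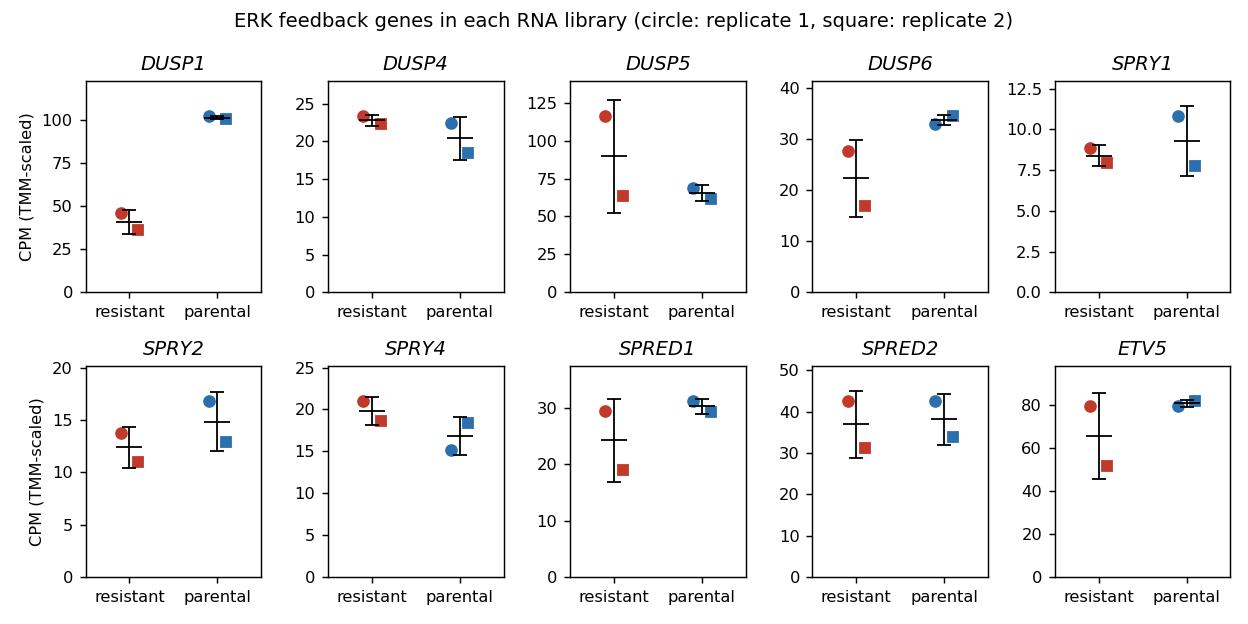
TMM-scaled CPM of the 10 genes in each library, with cabozantinib-resistant libraries in red on the left and parental libraries in blue on the right (circle for replicate 1, square for replicate 2), and the mean ± SD of each pair in black; every axis starts at 0. DUSP1 stood at 45.9 and 35.9 CPM in the resistant line against 102 and 101 CPM in the parental line, and the other 9 genes lay closer together.

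The other 3 member phosphatases had smaller fold changes than DUSP1 and did not pass. DUSP6, the cytoplasmic phosphatase MKP-3 that is specific for ERK, had 27.5 and 16.9 CPM in the resistant libraries, against 32.9 and 34.4 CPM in the parental libraries. Its lines did not overlap, but the 2 resistant values were farther apart than the parental ones, and the log2 fold change of -0.59 ± 0.25 did not pass (95% interval -1.21 to 0.02, adjusted p = 0.198 with edgeR). DUSP5, a nuclear phosphatase specific for ERK, had 116 and 63.2 CPM in the resistant libraries, against 69 and 61.6 CPM in the parental libraries. Resistant replicate 1 stood above both parental libraries and resistant replicate 2 between them, so the lines overlapped (log2 fold change 0.46 ± 0.29, 95% interval -0.25 to 1.17, adjusted p = 0.359 with edgeR). Without resistant replicate 1 the log2 fold change of DUSP5 was -0.04, and without resistant replicate 2 it was 0.82 with an adjusted p of 0.0028 in edgeR. DUSP4, the nuclear phosphatase MKP-2, had 23.3 and 22.3 CPM in the resistant libraries, against 22.4 and 18.4 CPM in the parental libraries. These values overlapped, and the 95% interval of its log2 fold change ran from -0.28 to 0.60 around 0.16.

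Per transcript length, the order of DUSP1 and DUSP5 differed between the lines. In the resistant line DUSP5 averaged 49.6 ± 26.9 TPM and DUSP1 29.1 ± 9.04 TPM, while in the parental line DUSP1 averaged 73.8 ± 1.27 TPM and DUSP5 36.2 ± 3.22 TPM (SD, n = 2 each). DUSP5 was above DUSP1 in each resistant library and below it in each parental library. The log2 ratio of DUSP1 to DUSP5 TPM averaged -0.69 ± 0.37 in the resistant line and 1.03 ± 0.10 in the parental line (SD, n = 2 each). The difference was -1.72. DUSP1 and DUSP5 had the largest fall and the largest rise of the 10 members in these same libraries, so the ratio is a description only. An exact two-sided permutation test gave p = 0.333, the smallest that 2 libraries against 2 can give. Once the lines are separated it can give no other value, so it decides nothing. DUSP1 made up 23.6% and 26.6% of the summed TPM of 10 MAP kinase phosphatase genes in the resistant libraries, against 42.1% and 43.2% in the parental libraries. DUSP5 made up 45.6% and 35.7% in the resistant libraries, against 21.7% and 20.1% in the parental libraries. Its own level was 68.6 and 30.6 TPM in the resistant libraries, against 38.5 and 34.0 TPM in the parental libraries. In resistant replicate 2 its share was thus higher while its TPM was below both parental libraries. The sum itself was 150 and 85.7 TPM in the resistant libraries, against 177 and 169 TPM in the parental libraries. These TPM sums carry no TMM scaling.

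In the resistant line the order of mean TPM was DUSP5, DUSP1, ETV5 (21.5 ± 9.48), SPRED2 (16.6 ± 5.00), DUSP6 (10.8 ± 4.87), SPRY2 (8.26), SPRY1 (6.76), SPRY4 (5.99), DUSP4 (5.32) and SPRED1 (4.02). Within each resistant library the order from DUSP5 to SPRY1 was the same, and only SPRY4 and DUSP4 changed places. Compared across the libraries no neighbours were separated, since each gene in resistant replicate 1 lay above its upper neighbour in resistant replicate 2. In the parental line DUSP1, DUSP5, ETV5 (27.1 ± 0.233) and DUSP6 (18.6 ± 0.884) stood apart from one another in both libraries. SPRED2 (18.2 ± 5.30) overlapped DUSP6, SPRY1 (9.6 ± 1.5) overlapped SPRY2 (10.4 ± 2.19), and SPRED1, DUSP4 and SPRY4 lay together between 4.39 and 5.41 TPM.

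**Figure D2:**
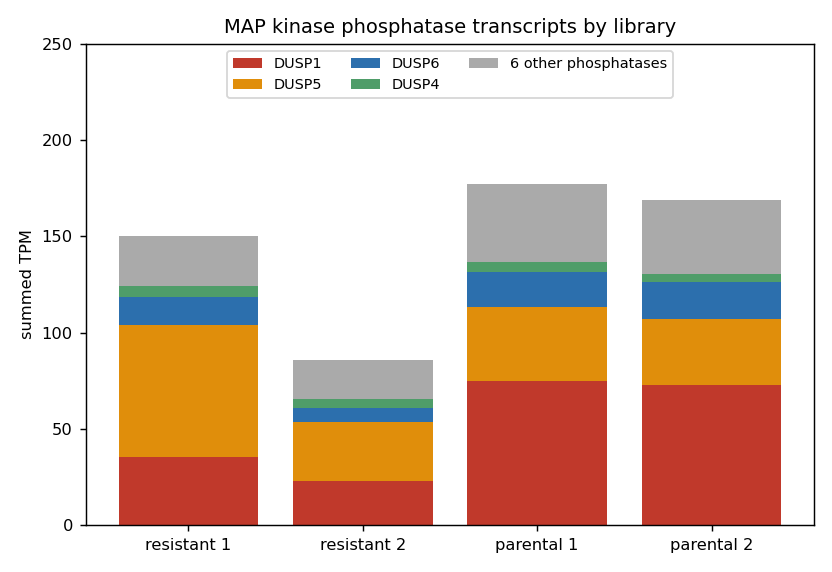
Summed TPM of 10 MAP kinase phosphatase genes in each library, with the resistant libraries on the left, split into DUSP1, DUSP5, DUSP6, DUSP4 and the 6 others (DUSP2, DUSP7, DUSP8, DUSP9, DUSP10 and DUSP16). The DUSP1 segment is 35.5 and 22.8 TPM in the resistant libraries and 74.7 and 72.9 TPM in the parental libraries, and in the resistant libraries the DUSP5 segment is the larger of these 2.

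The Sprouty genes had low levels and no call. Sprouty proteins bind regulators of receptor signalling such as GRB2 and CBL, and they limit RAS and RAF activation. SPRY4 had 21.0 and 18.6 CPM in the resistant libraries, against 15.2 and 18.4 CPM in the parental libraries. Its lines did not overlap, though resistant replicate 2 and parental replicate 2 were nearly equal (log2 fold change 0.24, 95% interval -0.23 to 0.71, adjusted p = 0.463 with edgeR). SPRY2 had 13.8 and 11 CPM in the resistant libraries, against 16.8 and 12.9 CPM in the parental libraries, and SPRY1 had 8.86 and 7.92 CPM in the resistant libraries, against 10.8 and 7.75 CPM in the parental libraries. Both overlapped between the lines. Their log2 fold changes were -0.26 (95% interval -0.83 to 0.31) for SPRY2 and -0.14 (95% interval -0.77 to 0.48) for SPRY1, and that of SPRY1 was 0.11 without parental replicate 1. With 80 to 137 counts per library, SPRY1 was the least deeply counted member.

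The SPRED proteins, which bring the RAS inactivator NF1 to the membrane, gave no call either. SPRED1 had 29.4 and 19.0 CPM in the resistant libraries, against 31.2 and 29.4 CPM in the parental libraries. Resistant replicate 1 lay at the level of parental replicate 2 and resistant replicate 2 below all others (log2 fold change -0.32, 95% interval -0.90 to 0.26, adjusted p = 0.428 with edgeR). SPRED2 had 42.6 and 31.2 CPM in the resistant libraries, against 42.5 and 33.8 CPM in the parental libraries. Its lines overlapped almost fully, with a log2 fold change of -0.05 (95% interval -0.58 to 0.48) that was 0.04 when libraries were scaled by their totals. NF1, named after its values were seen, had 85.9 and 47.3 CPM in the resistant libraries, against 104 and 104 CPM in the parental libraries. It was low in both resistant libraries, most in replicate 2, and did not pass (log2 fold change -0.64, adjusted p = 0.210 with edgeR).

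ETV5 had 79.7 and 51.7 CPM in the resistant libraries, against 79.8 and 82.0 CPM in the parental libraries. Resistant replicate 1 was level with the parental libraries and only resistant replicate 2 was low (log2 fold change -0.30 ± 0.23, 95% interval -0.85 to 0.25, adjusted p = 0.434 with edgeR). Over the 10 members, 3 were lower in CPM in both resistant libraries than in both parental ones (DUSP1, DUSP6 and ETV5). In this sense 1 was higher (SPRY4), beside 29.7% of all tested genes lower and 30.9% higher. In TPM ETV5 and SPRY4 overlapped between the lines and SPRY1 did not. The median log2 fold change was -0.20 for the 10 members and 0.02 for all genes tested.

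For 7 of the 10 members the gap between the 2 resistant libraries was wider than the log2 fold change between the lines; DUSP1, SPRY4 and DUSP4 were the exceptions. All 10 were higher in resistant replicate 1 than in resistant replicate 2, beside 50.5% of all tested genes. The median difference was 0.40 on the log2 CPM scale for the members and 0.00 for all genes tested, and it ranged from 0.07 for DUSP4 to 0.88 for DUSP5. In the parental line 7 of 10 members were higher in replicate 1 than in replicate 2, beside 52.1% of all tested genes, with a median difference of 0.13. Across the 12792 tested genes the resistant difference rose with relative gene length (Spearman rho 0.58, a description over genes that share the same libraries), while rho was -0.02 for the parental difference and -0.24 for the log2 fold change between the lines. The shortest members were SPRY1, DUSP1 and SPRY2, at 0.560, 0.675 and 0.756 times the median length, with resistant gaps of 0.16, 0.35 and 0.32. DUSP6, DUSP5 and SPRED2, at 0.967, 0.982 and 1.13 times, had gaps of 0.70, 0.88 and 0.45. The longest, ETV5, SPRY4, DUSP4 and SPRED1, at 1.56, 1.78, 2.23 and 3.10 times, had gaps of 0.62, 0.17, 0.07 and 0.62. The part of transcript length and library quality in these gaps was not tested.

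**Figure D3:**
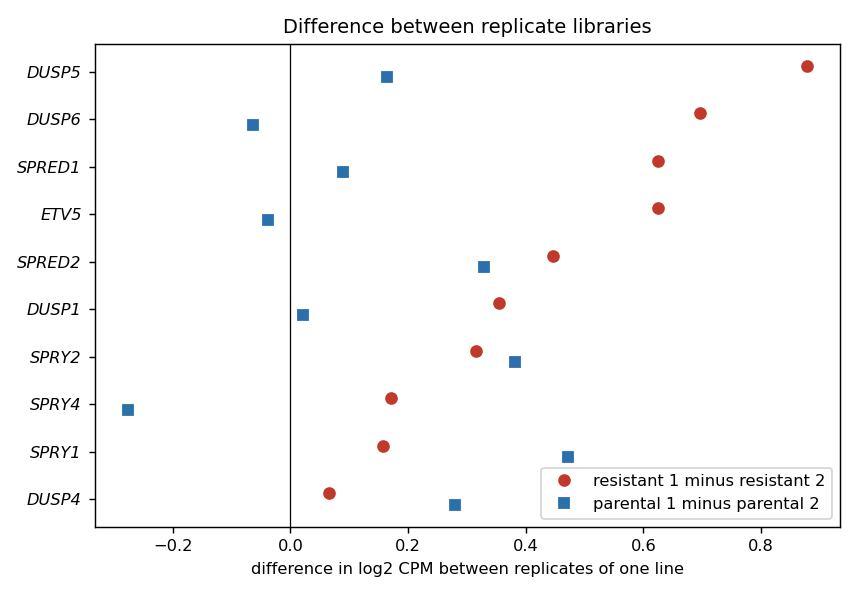
Difference in log2 CPM between replicate 1 and replicate 2 of each line for the 10 genes, resistant in red circles and parental in blue squares, sorted by the resistant difference. All 10 resistant differences are above 0, from 0.07 for DUSP4 to 0.88 for DUSP5, and 7 of the 10 parental differences are above 0.

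With 1 resistant library the spread came from the parental pair alone, which had varied far less, and many more genes were called. Without resistant replicate 1 DUSP6, SPRED1 and ETV5 were called lower beside DUSP1 (log2 fold changes -0.99, -0.67 and -0.64, adjusted p = 0.00254, 0.0075 and 0.00248 with edgeR). In that fit 26.8% of all tested genes were called lower and 26.0% higher. Without resistant replicate 2 the calls were DUSP1 lower and DUSP5 higher, and 19.1% of all genes were called lower and 15.9% higher. Without parental replicate 1 or 2 DUSP1 was the 1 member called, beside 2.05% and 2.0% of all genes lower and 1.17% and 1.07% higher.

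**Figure D4:**
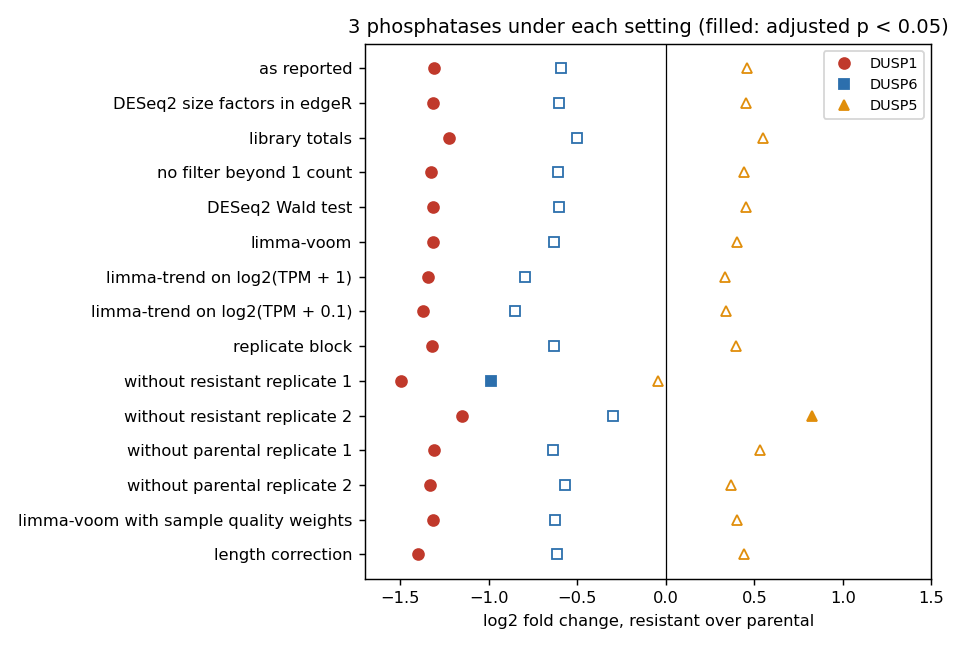
Log2 fold change of DUSP1 (red circles), DUSP6 (blue squares) and DUSP5 (orange triangles) in the resistant over the parental line, as reported and under 14 other settings; filled symbols have an adjusted p under 0.05. DUSP1 is filled in every row, from -1.50 to -1.15, DUSP6 is filled only without resistant replicate 1, and DUSP5 only without resistant replicate 2.

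In centred log2 CPM over the 4 libraries, DUSP1 was the member farthest from 8 of the other 9, and its nearest member was DUSP6 at a distance of 0.727. The nearest pair of members was SPRED1 and ETV5, at 0.0927, followed by SPRY1 and SPRY2, at 0.182. The 3 genes nearest to DUSP1, among 11046 tested genes whose log2 CPM averaged at least 2, were GBE1, a glycogen branching enzyme, at 0.0416, MYLK, a myosin light chain kinase, at 0.0744, and PTPRF, a receptor tyrosine phosphatase, at 0.104. These distances rest on 4 libraries.

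Of 6 other MAP kinase phosphatases tested, 1 was called lower and 0 higher, beside 3.41% and 2.96% of all tested genes. At an unadjusted p under 0.05, 4 were lower and 1 higher, beside 13.6% and 13.4% of all tested genes. DUSP8, which prefers JNK and p38, had 10.7 and 11.7 CPM in the resistant libraries, against 24.5 and 26.7 CPM in the parental libraries, with no overlap (log2 fold change -1.19 ± 0.18, adjusted p = 0.0228 with edgeR). The call for DUSP8 ended without parental replicate 1 (adjusted p = 0.0567 with edgeR) and without parental replicate 2 (0.122), and with limma-trend on log2(TPM + 1) or log2(TPM + 0.1) (0.0681 and 0.0745). The next 4 are named after their values were seen. DUSP16, another phosphatase of JNK and p38, had 12.7 and 6.53 CPM in the resistant libraries, against 26.6 and 23.1 CPM in the parental libraries (log2 fold change -1.36, adjusted p = 0.066 with edgeR). DUSP10 had 5.69 and 3.65 CPM in the resistant libraries, against 10.9 and 10.9 CPM in the parental libraries (log2 fold change -1.21, adjusted p = 0.0646 with edgeR). These 2 did not pass with edgeR, and DESeq2 called both lower. DUSP7, an ERK phosphatase, had 18.1 and 17.9 CPM in the resistant libraries against 29.0 and 25.1 CPM in the parental libraries, and DUSP9 had 7.82 and 10.8 CPM in the resistant libraries against 5.84 and 3.30 CPM in the parental libraries. Their adjusted p-values were 0.0996 and 0.135 with edgeR. The median log2 fold change of the 6 genes was -0.89.

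Among 14 other feedback regulators and ETS partners 1 passed, higher, and 0 lower, beside 2.96% and 3.41% of all tested genes. At an unadjusted p under 0.05, 2 were higher and 1 lower, beside 13.4% and 13.6% of all tested genes. ETV1, a close relative of ETV5, had 38.7 and 28.5 CPM in the resistant libraries, against 13.2 and 13.1 CPM in the parental libraries, 2.55-fold higher (log2 fold change 1.35 ± 0.21, adjusted p = 0.0235 with edgeR). ETV4, the third of these factors and named after its values were seen, had 22.8 and 25.6 CPM in the resistant libraries, against 13.7 and 16.0 CPM in the parental libraries (log2 fold change 0.70, adjusted p = 0.0803 with edgeR). ETV1 and ETV4 had no overlap between the lines with the resistant libraries high, whereas ETV5 had its low value in resistant replicate 2. Of the 14 listed genes 3 were higher without overlap and 6 lower, beside 30.9% and 29.7% of all tested genes. The call for ETV1 ended without parental replicate 1 (adjusted p = 0.0515 with edgeR) and without parental replicate 2 (0.0631), and with limma-trend on either TPM scale. The list's median log2 fold change was -0.23.

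Of 21 genes of the RAS and ERK cascade 1 passed, lower, and 0 higher, beside 3.41% and 2.96% of all tested genes. CIC had 90.6 and 80.2 CPM in the resistant libraries, against 149 and 133 CPM in the parental libraries (log2 fold change -0.73 ± 0.15, adjusted p = 0.0472 with edgeR). CIC has pseudogene copies whose reads the counting could have shared, and its call ended when libraries were scaled by totals (adjusted p = 0.0653 with edgeR), with limma-voom (0.0512), with limma-trend on either TPM scale, and without parental replicate 1 or 2 (0.578 and 0.377 with edgeR). The 20 other cascade genes did not pass with edgeR. At an unadjusted p under 0.05, 5 of the 21 were lower and 1 higher, beside 13.6% and 13.4% of all tested genes. Besides CIC, DESeq2 called PTPN11 and SOS1 lower and RPS6KA1 higher. It called 5.14% of its tested genes lower and 4.14% higher. The list's median log2 fold change was 0.02.

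The published 10-gene MAPK pathway activity score shares 5 genes with the members (SPRY2, SPRY4, DUSP4, DUSP6 and ETV5). Of its 10 genes 0 passed with edgeR and 0 with DESeq2. ETV4 was the 1 gene higher at an unadjusted p under 0.05, beside 13.4% of all tested genes, and 0 were lower, beside 13.6%. The median log2 fold change of the score's genes was -0.03. The 2 with the most reads were CCND1, the cell-cycle cyclin D1, at 297 and 283 CPM in the resistant libraries against 299 and 287 CPM in the parental libraries, and PHLDA1 at 231 and 132 CPM in the resistant libraries against 244 and 249 CPM in the parental libraries. CCND1 overlapped between the lines (95% interval of the log2 fold change -0.35 to 0.32), and PHLDA1 was low in resistant replicate 2.

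**Figure D5:**
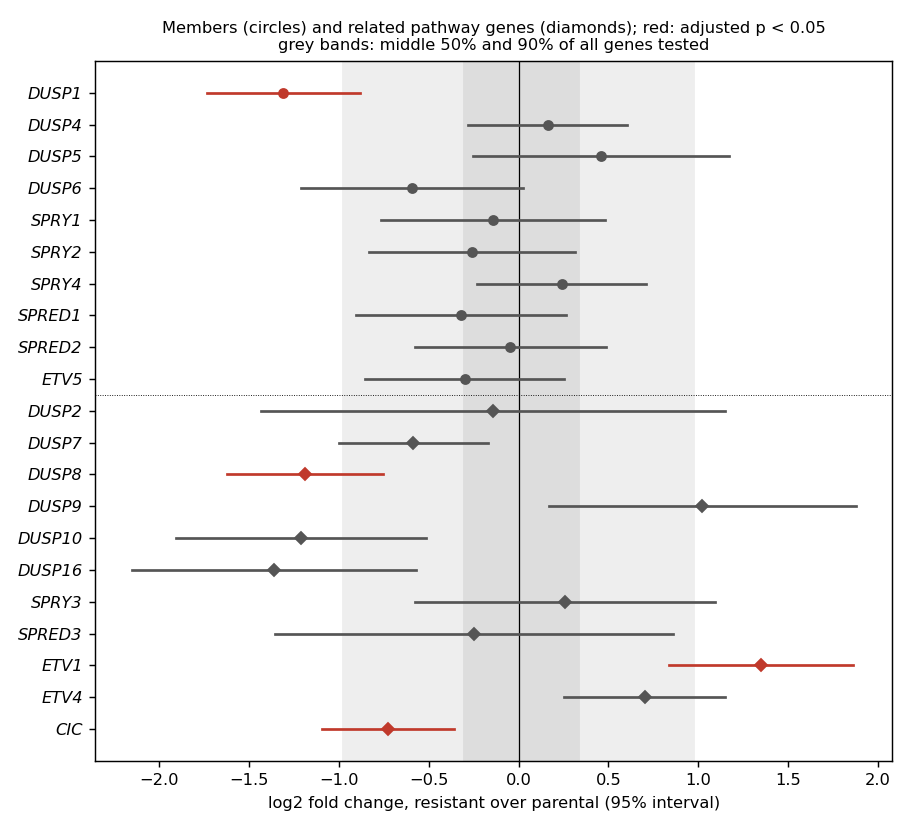
Log2 fold change of the resistant over the parental line with its 95% interval for the 10 members (circles, above the dotted line) and 11 related genes (diamonds); red marks an adjusted p under 0.05 and the grey bands hold the middle 50% and 90% of all tested genes. DUSP1 at -1.31, DUSP8 at -1.19, CIC at -0.73 and ETV1 at 1.35 are red, and the other 9 members have intervals that include 0.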

How the data were processed

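RNA was measured in 2 cabozantinib-resistant and 2 parental Caki-1 libraries, grouped by their titles. The authors deposited RSEM estimated counts (3.16% of values fractional) and TPM for 20114 gene symbols. Per the submitters' processing notes, tools included DESeq2 1.40.2, RSEM and STAR, and builds hg19 and GRCh38, with no role given. H3K27ac peaks, whose coordinates read as hg19, were not used, because the gene and promoter tables are in GRCh38.p14.

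Estimated counts were rounded, filtered with filterByExpr, scaled by TMM and tested with edgeR 4.0.16 (R 4.3.3) by its quasi-likelihood F test, fitting line alone, with Benjamini-Hochberg adjustment over 12792 genes at a threshold of 0.05. Standard errors and 95% intervals were derived from the F statistic. Relative length is counts over TPM, in units of the median tested gene. Members, pathway lists and the rule for named genes (each call, otherwise the 2 genes with the most reads of a list) were chosen with earlier results of these data known. The rule asked for 2 rising promoters, and only SPRY4 qualified. The motifs were chosen after the fit. Parental libraries differed beyond sampling noise and counted as 2 replicates. Alternatives used limma 3.58.1, DESeq2 1.42.0 and Python 3.11.15. The correction for length (lowess, span 0.3) and sample quality weights were added after seeing the data.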

Additional observations from a re-analysis of the deposited data

How the results depend on the processing

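DUSP1 stayed lower with an adjusted p from 7.49e-07 to 0.0408 in all 14 alternatives judged at 0.05, and only the threshold of 0.01 ended its call (log2 fold change -1.31, adjusted p = 0.0167), leaving 0 members called lower. Leaving out a library gave -1.50 to -1.15 for DUSP1, 0 to 1 members higher, 1 to 4 members lower, 141 to 3374 genes higher, 264 to 3479 genes lower, and 0 to 16 higher and 0 to 22 lower among 69 listed pathway genes outside the members. As reported these were 379 and 436 genes and 1 and 2 listed genes. All genes called higher and lower numbered 576 and 715 with DESeq2, 243 and 282 with limma-trend on log2(TPM + 1), 217 and 243 on log2(TPM + 0.1), 24 and 73 at 0.01, 790 and 819 with sample quality weights, and 1027 and 1268 with length correction. Listed genes higher and lower numbered 4 and 1 with library totals, 4 and 6 with DESeq2, 1 and 1 with limma-voom, 0 and 0 on either TPM scale and at 0.01, 6 and 7 with quality weights, and 7 and 12 with length correction. Library totals moved the median of all genes to 0.10 and the calls to 531 higher and 373 lower.

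Same-numbered libraries did not deviate together (r = -0.05 over genes) and only share a number. With the replicate block 860 genes were higher and 1020 lower, 6 and 8 listed genes, and among the members again only DUSP1 was called. Log2 fold changes that turned sign, none of them past the threshold as reported, ranged, leaving out a library, from -0.044 to 0.82 for DUSP5 (below 0 without resistant replicate 1), -0.37 to 0.11 for SPRY1, -0.29 to 0.15 for SPRED2, -0.051 to 0.011 for CCND1, -0.090 to 0.087 for MAPK14 and -0.20 to 0.059 for JUN. Library totals gave 0.040 for SPRED2, 0.069 for CCND1 and 0.022 for JUN, and length correction 0.12 for CCND1. MAPK14 turned to -0.0018 with DESeq2 size factors, -0.011 without a filter, -0.0024 with DESeq2, and -0.056 and -0.059 on the TPM scales with 1 and 0.1 added. The cause of these changes was not tested.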

Other observations

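In 3 further lists near the ERK feedback genes edgeR made no call. Of 6 tested genes in a JNK and p38 kinase list that also holds the ERK5 gene MAPK7, 0 passed with edgeR and 0 with DESeq2. An unadjusted p under 0.05 was found for 1 higher and 1 lower, beside 13.4% and 13.6% of all tested genes. MAPK14, which encodes p38 alpha, had 55.7 and 48.9 CPM in the resistant libraries, against 51.7 and 52.5 CPM in the parental libraries, and MAPK9, which encodes a JNK, had 48.1 and 45.8 CPM in the resistant libraries, against 44.8 and 44.8 CPM in the parental libraries.

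Of 11 immediate early and handling-response genes 0 passed with edgeR, while DESeq2 called 1, HSPA1B, higher, beside 4.14% of its tested genes. Of these 11 genes 1 was higher and 0 lower at an unadjusted p under 0.05, beside 13.4% and 13.6% of all tested genes. Their summed level was 758 and 925 CPM in the resistant libraries, against 669 and 641 CPM in the parental libraries, and their median log2 fold change was 0.11. JUN, the AP-1 subunit, had 178 and 148 CPM in the resistant libraries, against 171 and 170 CPM in the parental libraries. HSPA1A, a heat-shock protein gene that shares reads with its near-identical copy HSPA1B and is uncertain, had 143 and 237 CPM in the resistant libraries, against 133 and 118 CPM in the parental libraries. HSPA1B, uncertain for the same reason, had 138 and 166 CPM in the resistant libraries, against 96.1 and 93.4 CPM in the parental libraries. Its log2 fold change of 0.68 did not pass with edgeR (adjusted p = 0.0589). Both copies were higher in both resistant libraries than in both parental ones. In this sense 3 of the 11 genes were higher and 1 lower, beside 30.9% and 29.7% of all tested genes. Of 12 tested ERK-responsive transcripts outside the members, 0 passed with edgeR. An unadjusted p under 0.05 was found for 3 higher and 0 lower, beside 13.4% and 13.6% of all tested genes. The median log2 fold change of these transcripts was 0.37, against 0.02 for all genes tested. DESeq2 called 1, HMGA1, higher, beside 4.14% of its tested genes. HMGA1, a chromatin protein gene, had 1259 and 1002 CPM in the resistant libraries, against 715 and 743 CPM in the parental libraries.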
